A study of Rattus norvegicus with 9 samples.

Results

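The 8 genes described here, Shpk, Sbk1, Appl2, Nr0b2, Proser3, Cnr1, Smtnl2 and Tmem86a, were chosen by their measured array values, because these were much lower in the adrenal medulla of rats after 1 or after 6 sessions of immobilization than in unstressed rats. They are 8 of 14217 genes with a probe set on the array, and 13 of 20826 probe sets annotated to a single gene belong to them. Because the choice used the differences from the unstressed group, these differences are given as a description and carry no test. The study measured RNA of the dissected adrenal medulla on 9 Affymetrix rat arrays. Adult rats of 280 to 320 g were left unstressed (Control, 3 arrays), immobilized once for 2 h (IMO_1x, 3 arrays) or immobilized for 2 h on each of 6 days (IMO_6x, 3 arrays), and tissue was collected after the last session. Both medullae of an animal were dissected. The sources used here give neither strain nor sex, nor whether an array holds 1 animal or a pool, so errors measure only how far these 9 samples spread. GEO lists the organism as Rattus norvegicus, although some label fields speak of mouse or of brain.

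The adrenal medulla is the core of the adrenal gland. Its chromaffin cells release adrenaline and noradrenaline when the splanchnic nerve fires, and immobilization is a strong and widely used stressor that drives both this nerve and the glucocorticoids of the surrounding cortex. The 8 genes belong to no common pathway. Shpk makes the sugar phosphate sedoheptulose 7-phosphate, Sbk1 is a serine/threonine kinase that binds SH3 domains, and Tmem86a is a membrane enzyme that cleaves lysoplasmalogens. Smtnl2 is a smoothelin-like protein with a calponin homology domain. Appl2 is an adaptor on early endosomes, Nr0b2 (SHP) is a nuclear receptor without a DNA binding domain that represses other nuclear receptors, and Cnr1 (CB1) is the Gi/o-coupled receptor of endocannabinoids. Proser3 encodes a proline- and serine-rich protein whose function is little known.

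The deposited values are intensities, 1 per probe set and array, and their trimmed mean was nearly the same on every array (2500.6 to 2501). Their median was not. It was 1583 on IMO_6x replicate 1, 593 and 675 on replicates 2 and 3, and 827 to 1053 on the Control and IMO_1x arrays. Fold changes were computed on log2(intensity + 16) with limma in 1 fit of all 9 arrays, after the dimmest 30% of probe sets had been left out. That left 11287 genes, each represented by its brightest probe set. All 8 genes and 10 of their 13 probe sets passed that brightness filter, and the other 3 probe sets are given separately. That filter used the mean over all arrays, with a limit of 8.51 on the log2 scale. The group means of Shpk in IMO_1x, of Smtnl2 in both stressed groups and of Nr0b2 and Proser3 in IMO_6x lay below it, so the size of these fold changes is less certain than that of the others. Over all genes tested the log2 fold changes had a median of -0.13 in IMO_1x and -0.23 in IMO_6x, and values below are not corrected for it. The IMO_6x arrays stood apart in their array controls. The 3′/5′ ratio of the actin control probe sets, which rises when the labelled RNA is short of its 5′ end, reached 231 on IMO_6x replicate 1, 6.11 on replicate 2 and 8.87 on replicate 3, while the other 6 arrays lay between 1.45 and 2.15. Across genes, correlations of IMO_6x replicate 1 with the remaining arrays were 0.604 to 0.730, where those remaining 8 reached 0.854 to 0.983 among themselves. The IMO_6x values of the 8 genes and the counts of related genes called are therefore also given without this array. Their relation to RNA quality was not tested.

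After 1 session Shpk, Smtnl2, Tmem86a and Sbk1 stood at ranks 1, 4, 5 and 6 of the genes tested, counted from the most negative log2 fold change. After 6 sessions Nr0b2, Proser3, Cnr1 and Appl2 stood at ranks 2, 5, 6 and 7. Each quartet thus held 4 of the 10 most negative values of its comparison, which follows from how the genes were picked. In the fit without IMO_6x replicate 1, Nr0b2, Proser3, Appl2 and Cnr1 stood at ranks 6, 11, 41 and 130 after 6 sessions. With their brightest probe sets, all 8 genes lay below all 3 control arrays on every stressed array, in IMO_1x and in IMO_6x alike. Of all genes tested 29.5% had all 3 IMO_1x arrays below all control arrays, and 26.6% had all 3 IMO_6x arrays there. Nothing is read from the count of 8, since the choice fixed it. In bulk RNA a smaller number of cells that carry a transcript and less of it per cell cannot be told apart.

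**Figure D1:**
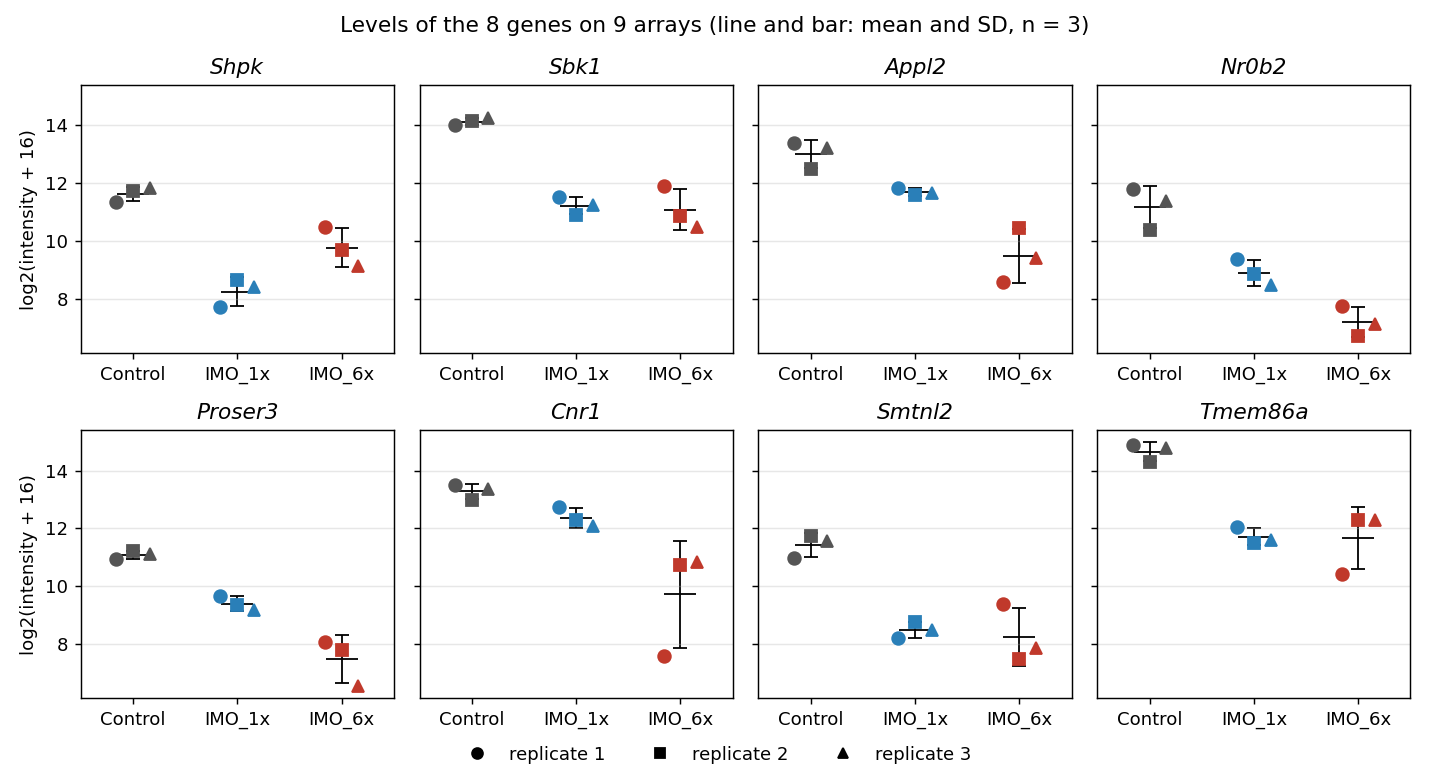
Level of each of the 8 genes, as log2(intensity + 16) of its brightest probe set, on the 9 arrays; symbols mark replicate numbers, and lines with bars give the mean and SD of 3 arrays. Levels of different genes come from different probes and are not comparable. All stressed arrays lie below all control arrays in each panel, and IMO_6x replicate 1 (red circle) is the lowest IMO_6x array for Appl2, Cnr1 and Tmem86a and the highest for the other 5 genes.

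Shpk, the sedoheptulose kinase that feeds the non-oxidative pentose phosphate pathway, was the gene that came part of the way back. Its intensity was 2619, 3352 and 3594 in the control arrays, 192, 387 and 322 in IMO_1x and 1407, 813 and 544 in IMO_6x. The 3 groups did not overlap, with IMO_6x between the other 2. The log2 fold change against control was -3.38 ± 0.41 (SE, n = 3 against 3) after 1 session, a 10.4-fold difference, and -1.87 ± 0.41 after 6 sessions, 3.65-fold. IMO_6x thus stood 1.51 ± 0.41 above IMO_1x on the log2 scale, and 1.16 above it without IMO_6x replicate 1. Among the 8 genes Shpk alone had all 3 IMO_6x arrays above all IMO_1x arrays, as 16.1% of all genes tested had.

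Sbk1, the SH3-binding kinase, was about as low after 6 sessions as after 1. Its brightest probe set (1388462_at) gave intensities of 16458, 18039 and 19396 in control, 2895, 1909 and 2401 in IMO_1x and 3780, 1862 and 1432 in IMO_6x. The control arrays were close together and far from the stressed arrays, which overlapped with one another. The log2 fold changes were -2.91 ± 0.33 (7.53-fold lower) in IMO_1x and -3.04 ± 0.33 (8.24-fold lower) in IMO_6x, and the difference between the stressed groups was -0.13 ± 0.33. It was -0.53 without IMO_6x replicate 1, with the remaining 2 IMO_6x arrays below all 3 IMO_1x arrays.

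Smtnl2, the smoothelin-like protein, followed the same course. Probe set 1385171_s_at gave 1991, 3381 and 3020 in control, 277, 419 and 340 in IMO_1x and 655, 165 and 214 in IMO_6x. Both stressed groups lay well below control and overlapped, with IMO_6x replicate 1 the highest of the 6 stressed arrays. The log2 fold changes were -2.94 ± 0.52 and -3.18 ± 0.52, that is 7.70-fold and 9.06-fold lower. Over the 9 arrays Sbk1 and Smtnl2 were the closest pair among the 8 genes, with a root mean square difference of 0.39 on the log2 scale between their deviations from control. The suffix of this probe set marks probes that can match more than 1 transcript.

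Tmem86a, the lysoplasmalogenase, was low after 1 session and remained low after 6. Probe set 1373309_at gave 30252, 19899 and 28327 in control, 4186, 2897 and 3079 in IMO_1x and 1356, 4962 and 5025 in IMO_6x. IMO_6x replicates 2 and 3 stood above all IMO_1x arrays and replicate 1 below them, so that the order of the stressed groups rests on that array. The log2 fold changes were -2.94 ± 0.45 (7.67-fold lower) and -2.98 ± 0.45 (7.92-fold lower), and the IMO_6x value was -2.36 without replicate 1. The difference between the stressed groups was -0.05 ± 0.45 with that array and 0.58 without it.

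Nr0b2, the repressor known from bile acid feedback in liver, was lower after 1 session and lower still after 6. Its intensity was 3546, 1308 and 2638 in control, 646, 445 and 340 in IMO_1x and 199, 89.4 and 125 in IMO_6x. The 3 groups did not overlap and lay in the order control, IMO_1x, IMO_6x. The log2 fold changes were -2.28 ± 0.51 (4.87-fold lower) and -3.98 ± 0.51 (15.8-fold lower), and IMO_6x differed from IMO_1x by -1.70 ± 0.51. The value after 6 sessions was -4.25 without IMO_6x replicate 1. The level after 6 sessions is dim, and the size of such a fold depends on the constant added before the logarithm. Over all settings tried it ranged from -4.38 to -3.59.

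Proser3 had the same order with less spread in control. Its intensity was 1928, 2343 and 2215 in control, 796, 638 and 559 in IMO_1x and 255, 206 and 76.9 in IMO_6x. The groups again did not overlap. The log2 fold change was -1.69 ± 0.45 (3.22-fold lower) after 1 session and -3.61 ± 0.45 (12.2-fold lower) after 6, a further -1.92 ± 0.45. The difference from control was -3.92 without IMO_6x replicate 1.

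Appl2, the endosomal adaptor, was moderately lower after 1 session. Its intensity was 10738, 5674 and 9422 in control, 3649, 3093 and 3202 in IMO_1x and 363, 1377 and 661 in IMO_6x. The IMO_1x arrays were close together, and all 3 IMO_6x arrays lay below them. The log2 fold change was -1.33 ± 0.43 (2.51-fold lower) after 1 session, rank 329 of the genes tested, and -3.55 ± 0.43 (11.7-fold lower) after 6 sessions. Without IMO_6x replicate 1, the lowest array, it was -3.10.

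Cnr1, the cannabinoid receptor, showed the smallest difference of the 8 genes after 1 session. Probe set 1369677_at gave 11615, 8130 and 10490 in control, 6884, 4964 and 4303 in IMO_1x and 175, 1682 and 1805 in IMO_6x. The 3 groups did not overlap, but IMO_6x replicate 1 was far below the other 2. The log2 fold change was -0.92 ± 0.72 (1.89-fold lower) after 1 session, rank 980, and -3.57 ± 0.72 (11.9-fold lower) after 6. This SE pools the spread of the 3 groups, and in the fit without IMO_6x replicate 1 the value after 1 session was -0.92 ± 0.19. Without IMO_6x replicate 1 the value after 6 sessions was -2.51 and its rank was 130 in place of 6, and the difference between the stressed groups was -1.59 in place of -2.66.

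Between the stressed groups, Appl2, Nr0b2, Proser3 and Cnr1 had all IMO_6x arrays below all IMO_1x arrays, against 17.7% of the genes tested. With that group's replicate 1 left out, 6 of the 8 genes had this order, Sbk1 and Smtnl2 being the added ones, and Shpk and Tmem86a had the opposite order. Both orders were then more frequent over all genes. Of 11301 genes tested without that array, 3583 had the remaining IMO_6x arrays below all IMO_1x arrays and 3188 had them above. Without that array the log2 fold changes of the 8 genes in IMO_6x ran from -4.25 for Nr0b2 to -2.22 for Shpk, and the 2 quartets were no longer apart. Smtnl2 at -3.75 and Sbk1 at -3.44 then lay below Appl2 at -3.10. The median over the 8 genes was -2.60 in IMO_1x and -3.37 in IMO_6x, and -3.27 in IMO_6x without replicate 1.

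**Figure D2:**
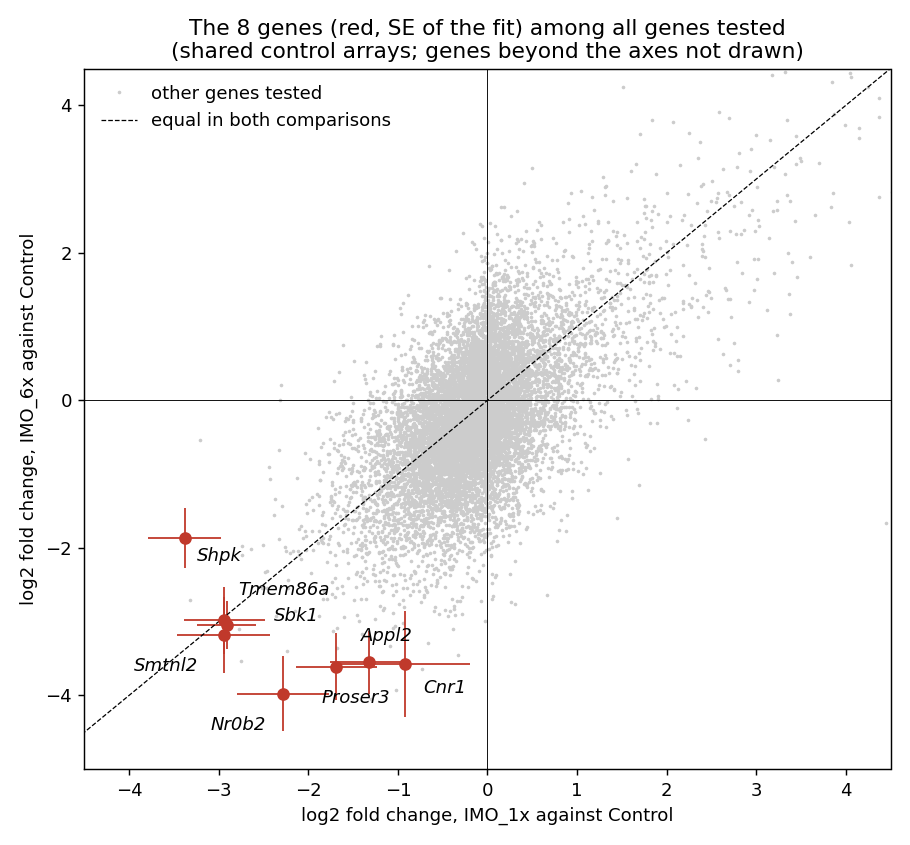
Log2 fold change against control after 1 session (x axis) and after 6 sessions (y axis) for the 8 genes (red, bars are SE of the fit) and the other genes tested (grey); both axes use the same 3 control arrays, so the slope of the grey cloud is no result. Shpk lies above the dashed line of equality, Sbk1, Smtnl2 and Tmem86a lie on it within their errors, and Nr0b2, Proser3, Appl2 and Cnr1 lie below it.

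The choice left out genes that were as low. After 1 session Cxcr4, the receptor of the chemokine CXCL12, came next after Shpk at -3.32 ± 0.29 on the log2 scale, followed by Lrrc20 at -3.21 ± 0.58. C15h8orf58, Iqce and Rasal1, an inhibitor of Ras, followed Sbk1 with values of -2.78, -2.75 and -2.74. After 6 sessions Npas2, a partner of Bmal1 in the circadian clock, had the most negative value at -4.05 ± 0.98, and Met, the receptor of hepatocyte growth factor, stood at -3.93 ± 0.95 and Tceal1 at -3.64 ± 1.07. The leukocyte antigen Cd48 and Tmem177 followed Appl2 with -3.45 and -3.40. These SE were larger than those of Nr0b2, Proser3 and Appl2, and the values after 6 sessions include IMO_6x replicate 1. 1 further probe set in both lists is annotated to a microRNA locus and is not described.

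Several probe sets report on 4 of the genes, and they did not always tell the same story. For Sbk1 a second, dim probe set (1388072_at) gave 3111, 336 and 1471 in control against 35.5 to 104 in IMO_1x and 11.5 to 95.5 in IMO_6x. These stressed values reach down to the added constant of 16, so no fold change is given. Its control arrays spread widely, and every stressed array lay below them. For Smtnl2 the dim probe set 1377695_at gave 893 to 1323 in control, 43.4 to 293 in IMO_1x and 52.6 to 366 in IMO_6x. Every stressed array lay below control here too. Both of these probe sets fell short of the brightness filter.

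Tmem86a has 3 probe sets. The second by brightness, 1390847_at, gave 17088, 6020 and 13905 in control, 1985, 1797 and 1222 in IMO_1x and 827, 642 and 882 in IMO_6x. Here all 3 IMO_6x arrays lay below all IMO_1x arrays, with log2 fold changes of -2.77 ± 0.38 and -3.83 ± 0.38 against control, so the 2 bright probe sets disagree on whether the transcript was lower after 6 sessions than after 1. The third, 1375208_at, is dim (brightness percentile 17.8) and gave 206 to 334 in control, 60.2 to 819 in IMO_1x and 50.9 to 470 in IMO_6x. Its groups overlapped, and its log2 fold changes were -0.30 ± 1.00 and -0.86 ± 1.00. Without IMO_6x replicate 1 the values after 6 sessions were -3.88 for 1390847_at and -1.71 for 1375208_at.

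For Cnr1 the 2 probe sets differed. Probe set 1387674_at, brightness percentile 51.6, gave 1859, 555 and 839 in control, 1480, 716 and 870 in IMO_1x and 1967, 417 and 609 in IMO_6x. The 3 groups overlapped throughout, and the log2 fold changes were 0.03 ± 0.63 and -0.26 ± 0.63. Without IMO_6x replicate 1 the value after 6 sessions was -0.90, and the remaining IMO_6x arrays still overlapped control. On IMO_6x replicate 1 this probe set had its highest value and 1369677_at its lowest. With all arrays the lower Cnr1 level after stress thus rests on 1 of its 2 probe sets, and with the mean of both the log2 fold changes were -0.44 and -1.91. Which part of the transcript each probe set reads is not given in the sources used here.

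**Figure D3:**
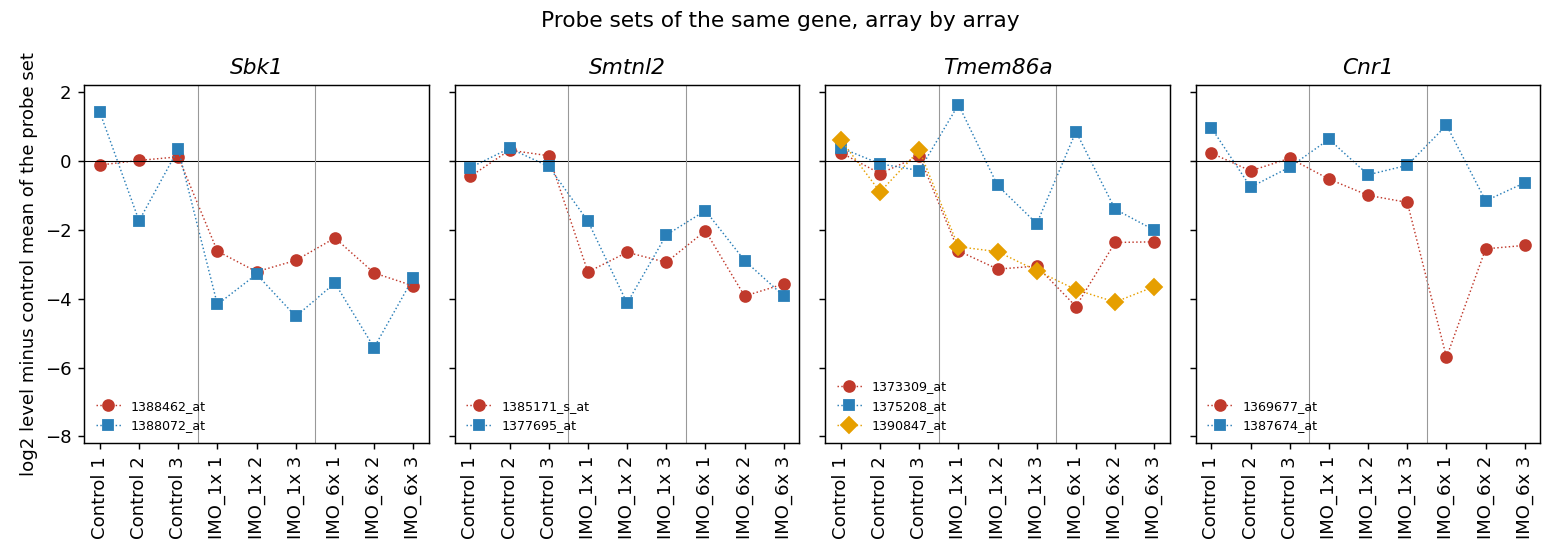
Log2 level of every probe set of Sbk1, Smtnl2, Tmem86a and Cnr1 on each array, minus that probe set's own control mean; red is the brightest probe set and dotted lines only link arrays of 1 probe set. The probe sets of Sbk1 and Smtnl2 are low on all stressed arrays, the dimmest of Tmem86a (blue) scatters around 0, and the 2 of Cnr1 move apart, by the most on IMO_6x replicate 1.

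Genes whose pattern over the 9 arrays was most like that of each of the 8 were looked up by the root mean square difference of deviations from control. Sbk1 was nearest to Smtnl2 and then to Cxcr4 (0.45 on the log2 scale), and Shpk to Cxcr4 (0.68) and Zfp775 (0.68). Smtnl2 was nearest to Sbk1 and then to C15h8orf58 (0.48), and Tmem86a to Tada2a (0.49), a subunit of histone acetyltransferase complexes, and Zfp395 (0.54). Appl2 was nearest to Grb14, an adaptor that inhibits the insulin receptor (0.43), and Tom1l1 (0.50). Nr0b2 was nearest to Proser3 (0.70) and to Fgf7, a growth factor for epithelia (0.74). Proser3 had LOC102550246 (0.54) and Ccdc69 (0.59) as its nearest genes. Cnr1 was nearest to Adck2 (0.36) and to Pex14, a protein of peroxisomal import (0.42). These distances are descriptions over the same 9 arrays, IMO_6x replicate 1 among them, and use the brightest probe set of each gene. For Cnr1 the deviation from control was -5.71 on that array, against -2.56 and -2.46 on IMO_6x replicates 2 and 3.

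On the RefSeq map of GRCr8, Shpk and Smtnl2 lie on chromosome 10 with 18 protein-coding genes between them, Sbk1, Proser3 and Tmem86a on chromosome 1, Nr0b2 and Cnr1 on chromosome 5 and Appl2 on chromosome 7. The nearest tested protein-coding gene on each side of each of the 8, 16 in all, was looked at after the values of the 8 were known. After 1 session 0 of the 16 passed an adjusted p of 0.05 by limma and 1 had an unadjusted p under 0.05, where 5.31% of all genes fell and 4.2% rose. Next to Shpk, the lysosomal cystine transporter Ctns differed by -0.73 ± 0.40 (adjusted p = 0.344). After 6 sessions 1 rose, Nudc beside Nr0b2 (0.58 ± 0.16, adjusted p = 0.0279), and 1 fell, Hspb6 beside Proser3 (-0.89 ± 0.27, adjusted p = 0.0402), where 14.9% of all genes fell and 9.36% rose. The 16 neighbours ranged from -1.04 to 0.59 after 1 session and from -1.48 to 0.89 after 6. The 8 genes ranged from -3.38 to -0.92 and from -3.98 to -1.87. They were picked for low values, so nothing is read from their distance to the neighbours.

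RefSeq promoter sequences of GRCr8 were at hand for 6 of the 8 genes, Appl2, Nr0b2, Proser3, Shpk, Smtnl2 and Tmem86a. The 250 bases before the annotated start are shown for 2 genes of each quartet, Shpk and Tmem86a of the first and Nr0b2 and Proser3 of the other, so that promoters of both can be compared. They lie at chr10:58315891-58316140 (plus strand), chr1:106731918-106732167 (plus), chr5:151062910-151063159 (plus) and chr1:94933297-94933546 (minus). Capitals mark every match, on either strand, to 8 motifs listed in the next paragraph.
Shpk: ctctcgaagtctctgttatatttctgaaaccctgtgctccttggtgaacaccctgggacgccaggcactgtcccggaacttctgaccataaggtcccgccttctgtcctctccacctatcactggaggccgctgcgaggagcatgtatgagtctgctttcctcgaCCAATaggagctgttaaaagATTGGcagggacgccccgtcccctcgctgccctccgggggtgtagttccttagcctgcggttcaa
Tmem86a: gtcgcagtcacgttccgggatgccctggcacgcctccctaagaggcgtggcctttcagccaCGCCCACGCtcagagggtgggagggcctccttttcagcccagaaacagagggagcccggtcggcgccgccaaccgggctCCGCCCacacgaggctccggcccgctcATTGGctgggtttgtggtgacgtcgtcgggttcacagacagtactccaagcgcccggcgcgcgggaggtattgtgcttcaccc
Nr0b2: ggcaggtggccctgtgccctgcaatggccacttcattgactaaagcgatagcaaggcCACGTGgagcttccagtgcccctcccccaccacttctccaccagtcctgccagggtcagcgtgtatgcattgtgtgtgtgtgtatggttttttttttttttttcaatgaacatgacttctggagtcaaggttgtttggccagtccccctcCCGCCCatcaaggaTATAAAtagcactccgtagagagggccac
Proser3: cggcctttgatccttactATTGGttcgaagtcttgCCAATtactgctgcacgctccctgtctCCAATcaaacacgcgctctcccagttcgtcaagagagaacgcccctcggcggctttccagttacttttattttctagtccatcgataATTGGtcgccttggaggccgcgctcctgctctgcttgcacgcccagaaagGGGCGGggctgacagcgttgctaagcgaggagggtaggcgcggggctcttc

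The motifs searched for were the cAMP response element TGACGTCA, the AP-1 site TGANTCA, the Nr5a1 site TCAAGGNCA, the E-box CACGTG, the Egr1 site GCGNGGGCG and 3 core promoter motifs, namely TATAAA, the pentamer CCAAT and the GC box, which reads GGGCGG. The first 3 had no match in the 6 promoters, and over all 33469 rat promoters of the same length they matched in 1.59%, 6.34% and 1.33%. CACGTG stood only in the promoter of Nr0b2, 193 bases before the start (5.59% of all promoters), and TATAAA only there too, at 29 bases (12.9%). The Egr1 site stood only in that of Tmem86a, at 189 bases on the minus strand (4.29%). CCAAT occurred 4 times in the promoter of Proser3, 2 times in that of Shpk and 1 time in that of Tmem86a (34% of all promoters have at least 1). The GC box was present in 5 of the 6, Shpk being the exception, against 30.5% of all promoters, and 5 times in Smtnl2. The Egr1 site can overlap a GC box, and GC boxes are more frequent where G and C are. The share of G and C was 73.6% in Smtnl2, 70.8% in Appl2, 67.6% in Tmem86a, 56.8% in Shpk and in Proser3 and 52.8% in Nr0b2, against a median of 51.2% over all promoters. A match is a description of the letters and shows no binding, and a motif absent from these 250 bases says nothing about more distant sequence.

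Whether genes that work with the 8 were lower too was asked of 6 lists drawn up by function, which hold 68 tested genes other than the 8. Proser3 had no list. After 1 session 1 of the 68 fell and 0 rose by limma at an adjusted p under 0.05, and 15 had an unadjusted p under 0.05. The 1 is Abhd6, an enzyme that breaks down the endocannabinoid 2-arachidonoylglycerol. Of all genes tested 5.31% fell and 4.2% rose (9.51% in all), against 1.47% and 0% of the 68. After 6 sessions 15 of the 68 fell and 5 rose (22.1% and 7.35%, against 14.9% and 9.36% of all genes, or 24.3% in all). Between the stressed groups 4 of the 68 passed, 3 upward, against 9.84% of all genes. The lists' median log2 fold change was -0.33 and -0.43, against -0.13 and -0.23 over all genes. These counts depend strongly on single arrays. Calls after 6 sessions also depend on the settings. Of 19 alternatives, the genes named below (Plcb3 was not followed) passed in 18 (H6pd, Ocrl, Abhd6, Abhd12 and Plcb1), 17 (Pgd and Mgll), 15 (Ncor1, and Adipor2 in either direction), 13 (Taldo1 and Rpe), 12 (Inpp5b, and Sin3a in either direction), 10 (Nr0b1), 9 (Pex7) and 6 (Specc1), and Rabep2 passed in 12 of 18. Without IMO_6x replicate 1, 20 fell and 2 rose after 1 session and 28 fell and 9 rose after 6, and 19 of the 20 genes called after 6 sessions with all arrays remained called in the same direction (Adipor2 did not). Calls were more frequent over the whole table too in that setting. Of all 11301 genes tested there, 2298 fell and 1112 rose after 1 session, and 3470 fell and 1991 rose after 6. By list, the genes that fell and rose without this array were, after 1 session, 3 and 0 for the endocannabinoid list, 4 and 0 for the pentose phosphate list, 6 and 1 for the Nr0b2 list, 4 and 1 for the Appl2 list, 3 and 0 for the plasmalogen list and 0 and 0 for the families of Sbk1 and Smtnl2. After 6 sessions they were, in the same order, 5 and 3, 3 and 5, 8 and 1, 7 and 0, 4 and 0, and 1 and 0. After 1 session 2 were called without IMO_1x replicate 1. After 6 sessions 13, 8 and 7 were called without control replicates 1, 2 and 3. Under quantile normalization 11 fell and 8 rose after 6 sessions, and with median-centred arrays 1 fell and 1 rose.

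Of the endocannabinoid list around Cnr1, 13 genes were tested. Abhd6 had log2 levels of 13.39, 13.06 and 13.37 in control, 11.86, 11.71 and 11.87 in IMO_1x and 12.38, 11.87 and 12.07 in IMO_6x. It fell by 1.46 ± 0.19 on the log2 scale after 1 session (limma, adjusted p = 0.0016) and by 1.17 ± 0.19 after 6 (adjusted p = 0.00306), with no overlap between control and stressed arrays. Only under median centring did its adjusted p miss the threshold, at 0.126 and 0.151. Mgll and Abhd12, which also break down 2-arachidonoylglycerol, went the other way after 6 sessions. Mgll, the main such enzyme in brain, rose by 1.06 ± 0.24 (adjusted p = 0.0113), and Abhd12 by 1.09 ± 0.21 (adjusted p = 0.00554). Plcb1 and Plcb3, phospholipases downstream of Gq, fell after 6 sessions by 0.86 ± 0.18 and 1.07 ± 0.24. The list counted 3 down, 2 up and 8 not past the threshold after 6 sessions (median -0.64), and 1 down, 0 up and 12 not past it after 1 (median -0.41, 4 with an unadjusted p under 0.05). Mgll and Abhd12 also rose between 1 and 6 sessions, where 4.63% of all genes fell and 5.21% rose.

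Of the pentose phosphate list around Shpk, 10 genes were tested. After 1 session 0 passed by limma (3 with an unadjusted p under 0.05), and values ran from -0.54 to 0.52. After 6 sessions 2 rose, 2 fell and 6 did not pass. Taldo1, the transaldolase that uses sedoheptulose 7-phosphate, rose by 0.80 ± 0.18 (adjusted p = 0.0131), from log2 levels of 13.92 to 14.32 in control to 14.80 to 14.94 in IMO_6x. Pgd, 6-phosphogluconate dehydrogenase, rose by 1.31 ± 0.28 (adjusted p = 0.0103). H6pd, which makes NADPH in the endoplasmic reticulum, fell by 1.24 ± 0.19 (adjusted p = 0.00247) and Rpe, the ribulose phosphate epimerase, fell by 0.88 ± 0.23 (adjusted p = 0.0194). Tkt, the transketolase, had log2 fold changes of -0.21 and 0.52 and did not pass.

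**Figure D4:**
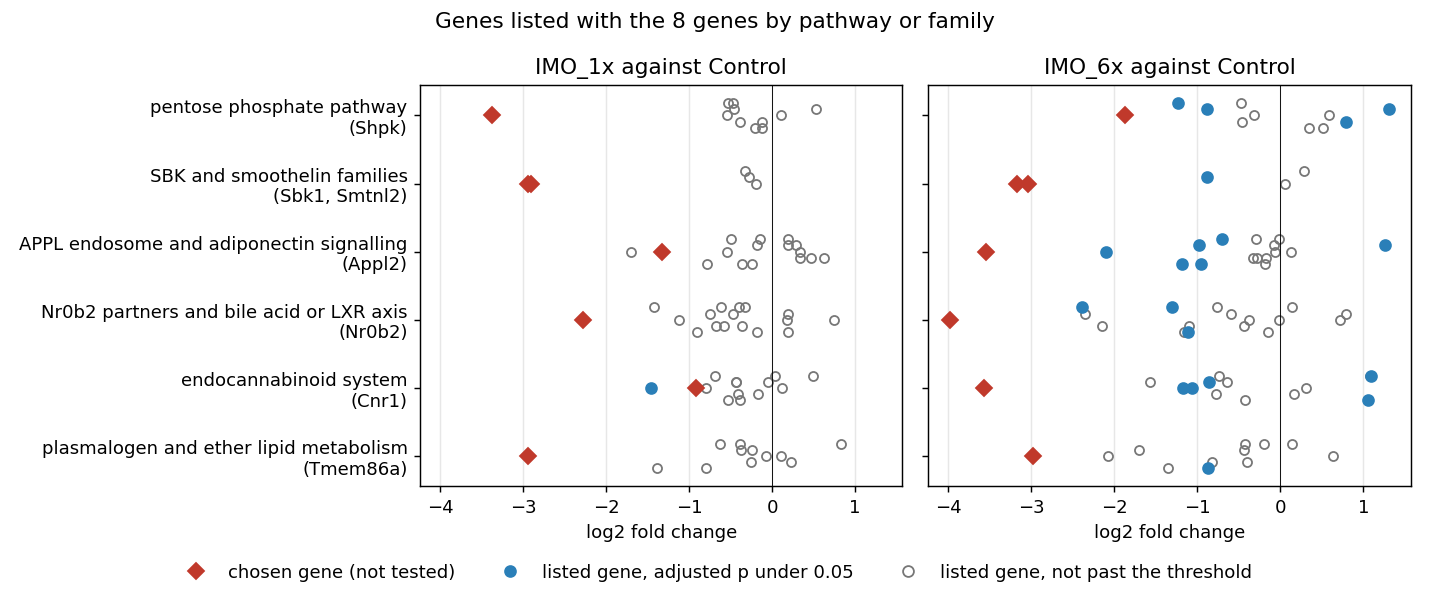
Log2 fold change against control of the genes listed by pathway or family, after 1 session (left) and after 6 (right). Filled blue circles passed an adjusted p of 0.05 by limma, and open circles did not. Red diamonds are the chosen genes that have a list, which were not tested. Proser3 has no list and is not drawn. After 1 session only Abhd6 is filled, and after 6 sessions 20 of 68 genes are, on both sides of 0.

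Around Nr0b2, 16 nuclear receptors and cofactors were tested. After 1 session 0 passed by limma (3 with an unadjusted p under 0.05), and after 6 sessions 3 fell, 0 rose and 13 did not pass. Nr0b1 (DAX1), the other receptor of its subfamily and a regulator of steroidogenic cells, had log2 levels of 11.32, 10.91 and 11.59 in control, 10.004, 9.65 and 9.90 in IMO_1x and 10.87, 7.70 and 8.09 in IMO_6x. All stressed arrays lay below control, by little on IMO_6x replicate 1, and Nr0b1 fell by 2.39 ± 0.70 after 6 sessions (adjusted p = 0.0339). The difference was -3.38 without IMO_6x replicate 1, and the adjusted p by limma ranged from 1.96e-05 to 0.113 over the alternatives. The corepressor Ncor1 fell by 1.12 ± 0.27 (adjusted p = 0.0151). Sin3a, a scaffold of histone deacetylase complexes, fell by 1.30 ± 0.23 with its brightest probe set (adjusted p = 0.0043), while its other probe set gave 0.97 under quantile normalization (adjusted p = 0.0364), so its direction depends on the probe set. Nr5a1, the steroidogenic factor of cortex cells, had values of 0.75 and -0.01 and did not pass.

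Of the Appl2 list, 15 genes of early endosomes and adiponectin signalling were tested. After 1 session 0 passed by limma (2 with an unadjusted p under 0.05), and after 6 sessions 5 fell, 1 rose and 9 did not pass. Appl1, the close relative of Appl2, had values of -0.55 and -0.07 and did not pass. Rabep2, an effector of Rab5, fell by 2.10 ± 0.55 after 6 sessions (adjusted p = 0.0229), and by 1.43 without IMO_6x replicate 1. Ocrl, an inositol phosphatase that binds Appl1, fell by 0.97 ± 0.22 (adjusted p = 0.0122) and its relative Inpp5b fell by 0.70 ± 0.19 (adjusted p = 0.0232). Adipor2, an adiponectin receptor, rose by 1.27 ± 0.34 with its brightest probe set (adjusted p = 0.0254). Without IMO_6x replicate 1 another of its probe sets was the brightest, at -1.35 (adjusted p = 0.00861), so the direction of Adipor2 is not settled.

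In the plasmalogen list around Tmem86a, 11 genes were tested, 0 passed by limma after 1 session (3 with an unadjusted p under 0.05) and 1 fell after 6, Pex7, the import receptor of an enzyme of plasmalogen synthesis (by 0.88 ± 0.25, adjusted p = 0.0318). Gnpat, the first enzyme of that synthesis, had values of -1.39 and -1.35 and did not pass. In the families of Sbk1 and Smtnl2, 3 genes were tested, 0 passed after 1 session (0 with an unadjusted p under 0.05), and Specc1, another calponin homology protein, fell after 6 sessions by 0.88 ± 0.27 (adjusted p = 0.0422). Smtn, the founding member of the smoothelins, had values of -0.33 and 0.29 and did not pass.

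Markers of the cells in the dissection were read beside the 8 genes. Of 12 chromaffin cell markers 11 had a probe set of their own symbol, of 14 adrenal cortex markers 10 had one, and all of these passed the brightness filter, so RNA of both tissues was present on these arrays. After 1 session 0 of the 11 chromaffin markers passed by limma (1 with an unadjusted p under 0.05), and 2 of 10 cortex markers rose (Scarb1 and Mrap). Of 7 adipocyte markers on the array only 2 passed the brightness filter. Lipe fell by 1.64 ± 0.41 (limma, adjusted p = 0.0349), while Pparg had a value of 0.31 ± 0.37 and did not pass. 0 of 44 other marker entries for Schwann cells, endothelium, leukocytes, fibroblasts, smooth muscle and erythrocytes passed (6 with an unadjusted p under 0.05). Without IMO_6x replicate 1, 1 chromaffin marker rose after 1 session, and 3 cortex markers rose with 1 down. Of the other lists, 2 endothelial markers rose and 2 fell, 1 Schwann cell marker rose and 1 fell, and 3 smooth muscle markers rose. Leukocyte, fibroblast and erythrocyte markers had 0 calls. Of all 11301 genes tested in that setting, 1112 rose and 2298 fell. The summed log2 signal of the cortex markers was 18.39 to 18.92 in control and 18.31 to 19.54 in IMO_1x, and that of chromaffin markers 18.52 to 19.11 and 18.46 to 19.40. After 6 sessions 5 of 11 chromaffin markers rose and 7 of 10 cortex markers rose with 1 down, and the summed signals were 20.20 to 21.22 and 20.04 to 20.94, above every control array. These sums are not corrected for the unequal medians of the arrays. Of the 44 other marker entries 6 fell and 2 rose in IMO_6x, where 14.9% of all genes fell and 9.36% rose. The 6 were the leukocyte markers Csf1r, Aif1 and Tyrobp, the endothelial markers Kdr and Tie1 and the Schwann cell marker S100b, and the 2 were Pdgfra of fibroblasts and Tpm2 of smooth muscle. All 21 markers called after 6 sessions remained called in the same direction without IMO_6x replicate 1, and 8 of the 11 chromaffin markers rose then. Among the other lists, 2 Schwann cell markers rose and 1 fell without that array. For endothelium the counts were 2 and 2, for leukocytes 1 and 4, and for fibroblasts 4 and 1. For smooth muscle they were 4 and 0 of 9 then tested, and for erythrocytes 0 and 0. Of all 11301 genes tested in that setting, 1991 rose and 3470 fell. The part of tissue makeup in the lower levels of the 8 genes was not tested.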

How the data were processed

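RNA of dissected adrenal medulla was hybridized to 9 Affymetrix rat arrays, 3 for each of Control, IMO_1x and IMO_6x, and the groups were taken from the sample titles. The deposited table holds linear intensity values for 31099 probe sets, and the authors' software for summarisation, background and scaling is not given in the sources used here. Per the labels, labelling was done by Affymetrix and analysis was planned in GeneTraffic. The equal trimmed mean over the middle of each array was found from the values.

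Of the probe sets 57 are array controls, 20826 carry 1 gene symbol, 436 several and 9780 none. Of those with 1 symbol, 20758 matched the current RefSeq gene table of GRCr8 and no symbol changed.

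Values were taken as log2(intensity + 16), the dimmest 30% of probe sets (mean below 8.51 on that scale) were left out, and each gene was represented by its brightest probe set. Limma 3.58.1 in R 4.3.3 fitted the 3 groups together (lmFit, then eBayes with trend, 6 residual degrees of freedom before moderation), two-sided, with Benjamini-Hochberg adjustment over all 11287 genes and a threshold of 0.05. The script was tested on simulated data. Over all genes 474 rose and 599 fell after 1 session and 1057 rose and 1681 fell after 6. These splits depend on scaling. They were 461 and 347, then 1039 and 943, under quantile normalization, and 158 and 67, then 462 and 227, with arrays centred on their medians. From 1 to 6 sessions 588 rose and 523 fell, against 391 and 238 under quantile normalization and 40 and 20 under median centring.

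The 8 genes and the lists were chosen with earlier results of these data known. Named genes are the 8 with all their probe sets, up to 4 called genes per related list and comparison by smallest adjusted p, the 2 nearest patterns per gene and the 10 most negative log2 fold changes per comparison with Control. Rab5b, Zfyve16 and Plcb3 were called but fall outside this rule, and Plcb3 is named beside its relative Plcb1. Related genes named although they did not pass, neighbours, motifs, promoters and named markers were chosen after values were seen.

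Control and IMO_1x arrays of the same number deviated from their group means together, with correlations of 0.51, 0.36 and 0.25 across genes. A pairing by these numbers was tried only as a replicate block among the alternatives, and the main fit did not use it. This pairing comes from the values alone, since the labels do not state it, and IMO_1x replicate 3 correlated slightly more with Control replicate 2 (0.275). Alternatives were other added constants (1 and 64), filters (none, dimmest 50% left out), normalizations, a mean over probe sets, fits of 2 groups, a replicate block and leaving out each array.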

Additional observations from a re-analysis of the deposited data

Results flagged for a closer look

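Among the related genes, 4 differed between 1 and 6 sessions by a direct test of that difference (limma, adjusted p under 0.05). H6pd was lower in IMO_6x than in IMO_1x, at a log2 fold change of -0.77 ± 0.19 (SE, adjusted p = 0.0376). It passed in 8 of 19 alternative settings, with adjusted p from 0.0114 to 0.483. Taldo1 was higher in IMO_6x by 1.18 ± 0.18 (limma, adjusted p = 0.0113) and passed in 15 of 19, from 0.000639 to 0.234. Mgll was higher by 1.59 ± 0.24 (limma, adjusted p = 0.0103) and passed in 14 of 19, from 0.00126 to 0.129. Abhd12 was higher by 1.05 ± 0.21 (limma, adjusted p = 0.0169) and passed in 14 of 19, from 0.00425 to 0.202.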

How the results depend on the processing

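Counts below are genes called by limma over the whole table and, after it, related genes called of those tested. They were 1073 and 1 after 1 session, 2738 and 20 after 6, and 1111 and 4 between the stressed groups. With arrays centred on their medians they were 225 and 0, 689 and 2, and 60 and 0. With only the 2 groups compared in the fit they were 3210 and 18, 1517 and 9, and 3 and 0. Leaving out IMO_6x replicate 1 and normalizing by quantiles, they were 3417 and 22 after 1 session and 2494 and 16 between the stressed groups, and quantile normalization of all arrays gave 629 genes there. The mean over all probe sets gave 2 related genes after 1 session. Leaving out each array in turn, the counts ran from 362 to 3410 and from 1 to 22 after 1 session, from 1380 to 5461 and from 7 to 37 after 6, and from 0 to 3664 and from 0 to 24 between the stressed groups. The lowest counts after 1 and after 6 sessions came without Control replicate 3, the 0 between the stressed groups without IMO_1x replicate 3 (2326 genes had an unadjusted p under 0.05), and the highest without IMO_6x replicate 1. The fit pools the spread of all groups, so an IMO_6x array can change calls after 1 session through the SE. Without IMO_6x replicate 1 the IMO_1x log2 fold changes of the 8 genes stayed the same, and their SE were smaller. For Cnr1 that SE was 0.19 in place of 0.72, and for Tmem86a 0.19 in place of 0.45. Other causes of these shifts were not tested. With the replicate block, counts were 977 and 1, 2741 and 22, and 943 and 4, and no count of calls moved by over 1.5 times. Same-numbered Control and IMO_6x arrays deviated together at correlations of 0.14, 0.06 and 0.16 and IMO_1x and IMO_6x arrays at 0.15, 0.08 and 0.09. Among the IMO_6x arrays, IMO_1x replicate 3 was closest to replicate 2 (0.21). All 9 same-numbered pairs ran from 0.06 to 0.51, with 6 over 0.1. What these pairs share beyond a number was not tested.

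None of the 8 genes changed sign against control under any alternative run. Their median was -2.91 after 1 session with the dimmest 50% left out, where 5 of the 8 were tested and 5 and 5 lay below all control arrays, and -2.99 after 6 sessions with quantile normalization but not IMO_6x replicate 1. With the mean over all probe sets, 7 of the 8 had all IMO_1x arrays below all control arrays. The median ran from -2.74 to -2.40 and from -3.52 to -3.22 when single arrays were left out. The log2 fold change of Adipor2 after 6 sessions was -1.35 without IMO_6x replicate 1 and -1.14 under quantile normalization without it, and ran from -1.35 to 1.48 over the left-out arrays. That of Sin3a was 0.97 under quantile normalization and ran from -1.42 to 0.68, with 0.67 and 0.66 without Control replicates 2 and 3. In each of these reversals another probe set had become the brightest. Low signal limits the values of Shpk in IMO_1x, Smtnl2 in both stressed groups and Nr0b2 and Proser3 in IMO_6x, and 3 arrays a group limit the precision throughout.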
